A study of Homo sapiens with 4 samples.

Results

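The 10 genes PHGDH, PSAT1, PSPH, SHMT1, SHMT2, MTHFD1, MTHFD2, MTHFD1L, CTH and CBS encode enzymes of serine synthesis, one-carbon metabolism and cysteine synthesis. They were taken by gene symbol, and all 10 of 10 were found among the 19192 genes listed in each of the 4 count tables. The tables come from SW480, an established cell line of human colorectal adenocarcinoma, in 2 derived forms. One derivative is labelled as overexpressing LIN28B, an RNA-binding protein that blocks maturation of let-7 microRNAs, and is called OE-labelled here. The other is labelled as overexpressing LIN28B with a knockout (IMP1-/-) of IMP1, which is the product of the IGF2BP1 gene and binds mRNAs, and is called knockout-labelled. Neither the promoter of the overexpression construct nor the number of clones is stated in the labels, and no line without LIN28B overexpression was analysed here. Each line gave 1 library of randomly fragmented total RNA and 1 library of ribosome footprints, each from 3 pooled culture plates, so no difference below has a replicate check and no p-value is given.

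Serine is made from the glycolytic intermediate 3-phosphoglycerate in successive steps by PHGDH, PSAT1 and PSPH. Serine hydroxymethyltransferases, SHMT1 in the cytosol and SHMT2 in mitochondria, then pass a carbon from serine to tetrahydrofolate and leave glycine. MTHFD2 and MTHFD1L in mitochondria and MTHFD1 in the cytosol interconvert the folate-bound carbon units, which feed purine, thymidylate and methionine synthesis. Transsulfuration joins homocysteine to serine through CBS, and CTH cleaves the product to release cysteine, a precursor of glutathione. Several of these genes are known targets of ATF4, the transcription factor of the amino acid response, and colorectal and other tumour lines are known to use the pathway heavily.

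The total count over all genes was 5429224 in the OE-labelled and 6813372 in the knockout-labelled RNA library, and 2732760 and 3260262 in the footprint libraries. IGF2BP1, the gene targeted per the labels, was higher and not lower in the knockout-labelled line: its log2 ratio, knockout-labelled over OE-labelled, was 0.79 in mRNA and 1.03 in footprints. LIN28B, overexpressed in both lines per the labels, stood at -2.43 and -2.31. The differences described here are thus between libraries as labelled, and loss of IMP1 was not seen in the counts. Of 10 colorectal epithelial markers, 7 were measured in RNA, among them EPCAM. Of these 7, the log2 mRNA ratio of 4 was past 1.5-fold downward, beside 10.5% of all measured genes. The 4 were KRT8 (-1.22), KRT18 (-1.10), VIL1 (-0.84) and KRT19 (-0.81). The ratio of CDH1 (0.89) was past 1.5-fold upward, beside 10.5% of all measured genes. KRT20 and LGALS4 had 0 counts in all 4 libraries. Among markers of other cell types PTPRC, COL1A2, DCN, LUM, RBFOX3, DDX4 and DAZL also had 0 counts in all 4. Others were present in RNA: KDR with 1571 and 1312 counts, TUBB3 with 182 and 135, DES with 101 and 156, CD68 with 58 and 163 and COL1A1 with 2 and 55, beside 0 and 57 footprint counts. The part of these markers in the results below was not tested. In bulk libraries a smaller share of cells with a transcript and less of it per cell cannot be told apart.

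The start codons of the listed transcripts are shown because footprints over RNA, given further below, differed widely among these mRNAs. Each line holds 12 bases before and 12 after the start codon, which is in capitals, as DNA letters read from GENCODE release 29 transcripts.
PHGDH: ccaactccagcaATGgcttttgcaaat
PSAT1: ggccgccgcaccATGgacgcccccagg
PSPH: attcttccagcgATGgtctcccactca
SHMT1: cgaaccagtgcaATGacgatgccagtc
SHMT2: ttccgagttgcgATGctgtacttctct
MTHFD1: ctaataaaggccATGgcgccagcagaa
MTHFD2: ccggcgcggtctATGgctgcgacttct
MTHFD1L: ccgtcccgcgccATGggcacgcgtctg
CTH: tcgcggttcagcATGcaggaaaaagac
CBS: tccggtcccagcATGccttctgagacc
A purine 3 bases before the start codon, a feature of strong initiation contexts, was present in 9 of the 10 and absent in MTHFD2. Over 7002 genes measured in both assays, 88.1% had that purine.

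CTH and CBS stood apart between the lines, in opposite directions: CTH was higher and CBS lower in the knockout-labelled libraries, in RNA and in footprints. The 3 enzymes of serine synthesis and the 5 folate enzymes all lay within 1.5-fold between lines in each assay. Among those 8, footprint log2 ratios of 7 were below 0, the lowest that of PSAT1 (-0.50), and that of SHMT1 was above 0. Of all 7323 genes measured in footprints, 3775 lay above 0. A gene counted as measured with a mean of at least 50 counts over the 2 libraries of an assay. By that rule 9 of the 10 were measured in RNA, all 10 in footprints and 9 in both, the exception being CTH, with a mean RNA count of 47.0. The next lowest in RNA was CBS, with a mean of 129.5.

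**Figure D1:**
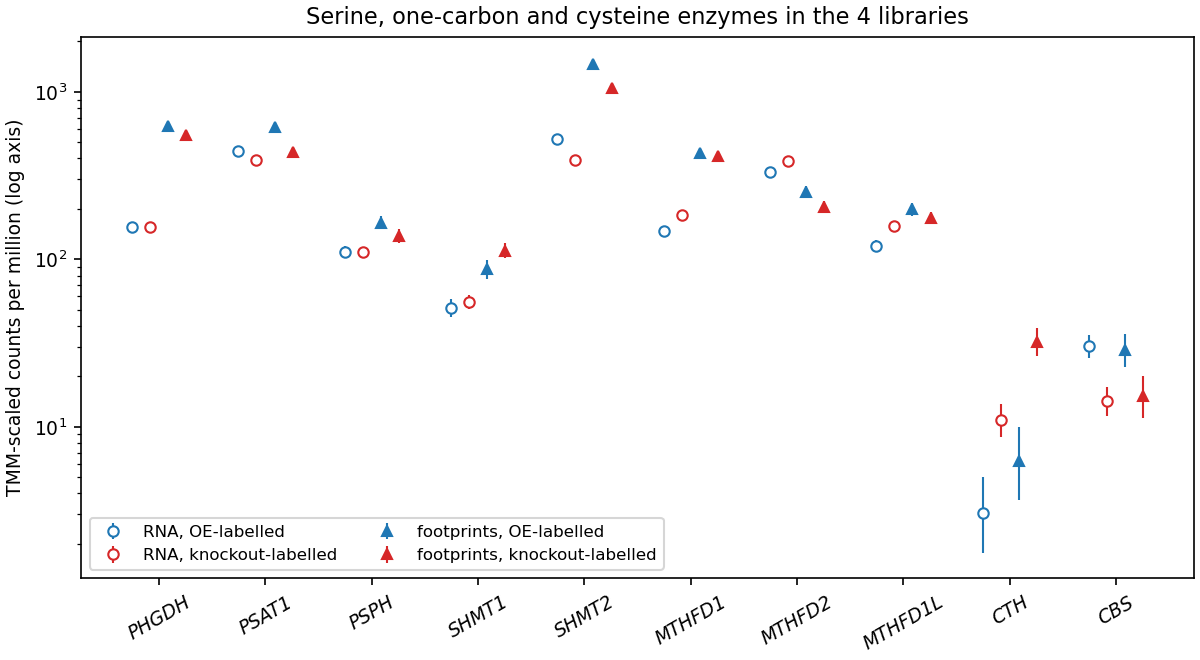
TMM-scaled CPM, that is counts brought to a common library size, on a log axis for each of the 10 genes in the 4 libraries. Circles are RNA and triangles footprints, blue is OE-labelled and red knockout-labelled, and bars are 95% Poisson counting intervals. CTH and CBS, the latter counted without CBSL, are the lowest in all 4 libraries, and they differ between the lines in opposite directions.

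Ratios were taken after TMM scaling within each assay, with 0.5 added to each count. Their 95% intervals cover counting error only, from the exact conditional binomial distribution of the 2 counts. In mRNA, 0 of 9 measured members were at least 1.5-fold higher in the knockout-labelled library, against 10.5% of all 9855 measured genes. In the other direction 1 of 9 (CBS) was at least 1.5-fold lower, against 10.5%. In footprints, 1 of 10 (CTH) was at least 1.5-fold higher, against 15.0% of 7323 genes, and 1 of 10 (CBS) lower, against 14.1%. These shares are near the background. CTH met the footprint minimum only through the knockout-labelled library, where it was higher. The median log2 ratio of the members was 0.01 in mRNA, beside 0.01 for all genes, and -0.22 in footprints, beside 0.02.

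**Figure D2:**
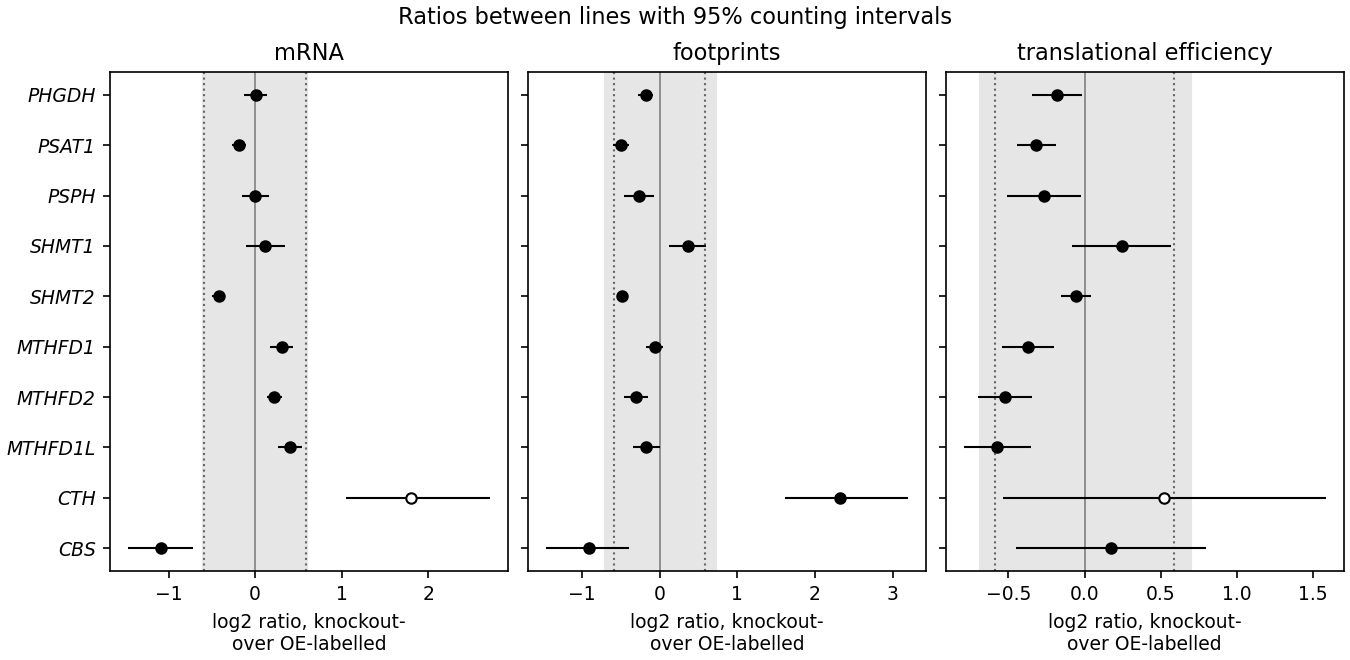
Log2 ratios, knockout-labelled over OE-labelled, in mRNA, footprints and translational efficiency, with 95% counting intervals. Dotted lines mark 1.5-fold, the grey band spans the 10th to 90th percentile of all measured genes, and open symbols are CTH values whose RNA counts are under the minimum. CTH and CBS lie outside the dotted lines in mRNA and footprints, and the other 8 lie inside them.

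PHGDH, the dehydrogenase that commits 3-phosphoglycerate to serine, is read from ENST00000369409 (chromosome 1, 119711934 to 119744212, GRCh38, 12 exons). It had 814 RNA counts in the OE-labelled and 1112 in the knockout-labelled library, or 156 and 157 scaled CPM. Its RNA level was thus alike in the 2 libraries, with a log2 ratio of 0.01 (-0.13 to 0.14). Footprints numbered 1687 and 1810, a log2 ratio of -0.17 (-0.27 to -0.08), slightly lower in the knockout-labelled library.

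PSAT1, the aminotransferase of the next step (ENST00000376588, chromosome 9, 78297143 to 78330093), had 2306 and 2765 RNA counts and 1683 and 1443 footprint counts. After TMM scaling both were lower in the knockout-labelled library, RNA at -0.18 (-0.26 to -0.10) and footprints at -0.50 (-0.60 to -0.40). With total counts the RNA value was -0.07, and an interval of the same width reaches above 0. The scaled footprint level of PSAT1 went from 621 CPM in the OE-labelled library to 439, which is 1.41-fold and the farthest from 0 of the 3 serine synthesis enzymes. Between PSAT1 and PHGDH, a comparison that needs no scaling between libraries, PSAT1 took 49.9% (48.2% to 51.6%) of their summed footprint counts in the OE-labelled library and 44.4% (42.6% to 46.1%) in the knockout-labelled one. In RNA the share of PSAT1 was 73.9% (72.3% to 75.4%) and 71.3% (69.9% to 72.7%). PSPH, the phosphatase that releases serine (ENST00000395471, chromosome 7, 56011068 to 56051604), had 578 and 789 RNA counts and 450 and 454 footprint counts. Its log2 ratios were 0.00 (-0.15 to 0.16) in mRNA and -0.26 (-0.45 to -0.07) in footprints.

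The cytosolic and mitochondrial serine hydroxymethyltransferases differed in direction. SHMT2 (ENST00000328923, chromosome 12, 57229327 to 57234931) had 2736 and 2783 RNA counts, or 525 and 392 scaled CPM, and 3999 and 3480 footprint counts, or 1474 and 1059. It was lower in the knockout-labelled library by 1.34-fold in mRNA (log2 ratio -0.42, -0.50 to -0.34) and 1.39-fold in footprints (-0.48, -0.54 to -0.41). SHMT1 (ENST00000316694, chromosome 17, 18327873 to 18363487) had 268 and 396 RNA counts and 237 and 369 footprint counts. Its log2 ratio was 0.12 (-0.11 to 0.35) in mRNA, an interval across 0, and 0.36 (0.12 to 0.60) in footprints. The share of SHMT1 in the summed counts of the pair in RNA was 8.92% (7.93% to 9.998%) in the OE-labelled line and 12.5% (11.3% to 13.7%) in the other. In footprints it was 5.59% (4.92% to 6.33%) and 9.59% (8.67% to 10.6%). In each assay the exact binomial intervals of the 2 lines do not overlap. The SHMT1 log2 ratio exceeded that of SHMT2 by 0.54 (0.30 to 0.77) in mRNA and by 0.84 (0.59 to 1.08) in footprints.

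The folate interconversion enzymes had more RNA but no more footprints in the knockout-labelled libraries. MTHFD2, the mitochondrial dehydrogenase and cyclohydrolase (ENST00000394053, chromosome 2, 74198562 to 74217565), had 1730 and 2743 RNA counts against 688 and 677 footprint counts. Its log2 ratio was 0.22 (0.13 to 0.31) in mRNA and -0.30 (-0.45 to -0.14) in footprints, so the assays stood on opposite sides of 0. MTHFD1L, the mitochondrial formyltetrahydrofolate synthetase (ENST00000367321, chromosome 6, 150865549 to 151101887), had 626 and 1127 RNA counts and 539 and 581 footprint counts. It had the highest mRNA ratio of the measured members, 0.40 (0.26 to 0.55), with footprints at -0.17 (-0.34 to 0.00). MTHFD1, the trifunctional cytosolic enzyme (ENST00000216605, chromosome 14, 64388350 to 64460004), had 772 and 1300 RNA counts and 1170 and 1356 footprint counts. It stood at 0.31 (0.18 to 0.44) in mRNA and -0.06 (-0.18 to 0.05) in footprints. MTHFD1L and MTHFD1 did not differ from each other beyond counting error: the difference of their log2 ratios was 0.10 (-0.09 to 0.29) in mRNA and -0.10 (-0.31 to 0.10) in footprints.

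CTH, which cleaves cystathionine to cysteine (ENST00000370938, chromosome 1, 70411272 to 70439570), had few counts in the OE-labelled line, 16 in RNA and 17 in footprints. In the knockout-labelled line it had 78 and 106. Scaled levels were 3.07 and 11.0 CPM in RNA and 6.27 and 32.3 in footprints. Footprints were 5.02-fold higher (log2 ratio 2.33, 1.62 to 3.20), at percentile 99.9 of the measured genes. CTH reached the minimum, with a mean footprint count of 61.5, only through its 106 counts in the knockout-labelled library. Its percentile and its call therefore depend on the library where it was higher. The RNA ratio, from counts just under the minimum, was 3.50-fold higher (1.81, 1.05 to 2.72). Both assays were therefore higher in the knockout-labelled line, with intervals clear of 0. No 28-base window of the CTH transcript was found in a transcript of another gene, and no annotated exon of another gene overlapped its exons.

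CBS, which forms cystathionine from serine and homocysteine (ENST00000398158, chromosome 21, 43053191 to 43075831), had 158 and 101 RNA counts and 78 and 50 footprint counts. It was 2.13-fold lower in RNA, with a log2 ratio of -1.09 (-1.47 to -0.72). Its footprints were 1.88-fold lower (-0.91, -1.46 to -0.39). CBS counts cannot be separated from those of CBSL, listed as another gene: their transcripts of 2453 bases differ at 1 base, and 98.8% of the 28-base windows of CBS occur in CBSL. With the counts of both added (314 and 205 in RNA, 146 and 93 in footprints) the log2 ratios were -1.06 (-1.32 to -0.80) and -0.92 (-1.32 to -0.54). Genes of chromosome 21 other than CBS were also lower in the knockout-labelled libraries, with a median log2 ratio of -0.52 over 104 genes in mRNA and -0.43 over 78 in footprints. The part of the chromosome in the CBS value was not tested.

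The share of CTH in the counts of the 2 transsulfuration enzymes was higher in the knockout-labelled line in each assay. CTH took 9.20% (5.35% to 14.5%) of the summed CTH and CBS counts in the OE-labelled RNA library and 43.6% (36.2% to 51.2%) in the knockout-labelled one. In footprints it took 17.9% (10.8% to 27.1%) and 67.9% (60.0% to 75.2%). Because CBS reads may be split with CBSL, the share was also taken with both added. It was then 4.85% (2.80% to 7.75%) and 27.6% (22.4% to 33.2%) in RNA and 10.4% (6.19% to 16.2%) and 53.3% (46.1% to 60.4%) in footprints. CTH again had the higher share in the knockout-labelled line, while in that line the footprint share did not differ from equality beyond counting error. The difference of their log2 ratios, CTH minus CBS, was 2.89 (2.05 to 3.74) in mRNA and 3.24 (2.35 to 4.13) in footprints.

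**Figure D3:**
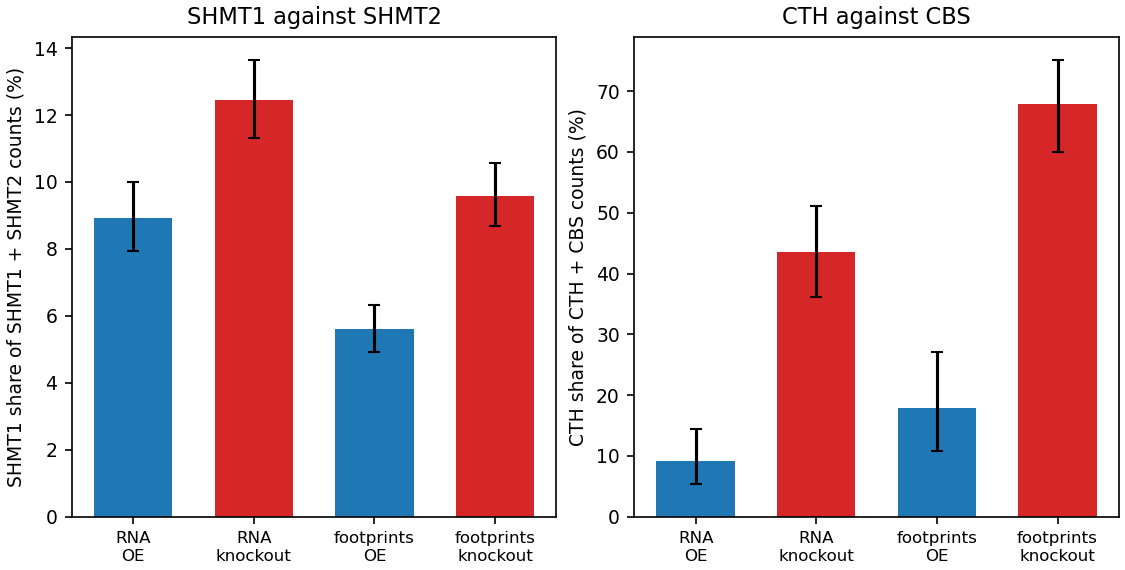
Share of SHMT1 in the summed SHMT1 and SHMT2 counts (left) and of CTH in the summed CTH and CBS counts (right), in percent, per library, with exact 95% binomial intervals. SHMT1 goes from 5.59% to 9.59% and CTH from 17.9% to 67.9% in footprints, and each pair of intervals within an assay is separate. CBS is counted without CBSL.

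CTH, itself under the RNA minimum, was set against the 7260 genes measured in both assays. By both log2 ratios the nearest were IL11 (1.65 in mRNA and 1.99 in footprints), MTMR9, HBEGF, GTPBP2 and TPST1. Their Euclidean distances were 0.37 to 0.54. CBS, out of 7259 others, lay closest to ZNF367 (-1.10 and -0.90), ENTPD8, PDGFA, SLC2A3 and its own copy CBSL, at distances of 0.02 to 0.06. These distances rest on 2 values per gene. They are small beside the counting intervals of CTH (1.05 to 2.72 in mRNA, 1.62 to 3.20 in footprints) and CBS (-1.47 to -0.72, -1.46 to -0.39). Which genes are nearest is therefore uncertain.

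Between genes, levels were compared as footprint CPM per kilobase of coding sequence. In the OE-labelled line the order was SHMT2 (968), PSAT1 (555), PHGDH (387), PSPH (244), MTHFD2 (239.8), MTHFD1 (153), MTHFD1L (67.2), SHMT1 (59.9), CBS (17.3) and CTH (5.12). PSPH and MTHFD2 did not differ beyond their counting intervals (222 to 268 and 222 to 258), nor did MTHFD1L and SHMT1 (61.7 to 73.1 and 52.5 to 68.0). In the knockout-labelled line SHMT2 (706), PSAT1 (399) and PHGDH (348) again led. SHMT1 (78.1) there stood above MTHFD1L (60.7), and CTH (26.8, 21.9 to 32.4) above CBS counted without CBSL (9.28, 6.89 to 12.2).

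Translational efficiency was compared between lines by dividing the footprint ratio by that of mRNA. None of the 9 members measured in both assays was at least 1.5-fold higher, against 13.4% of 7260 genes, and 0 were at least 1.5-fold lower, against 12.9%. Yet 7 of the 9 lay below 0, and for 6 the Wald interval from the 4 counts lay below 0, against 50.4% and 22.9% of all genes. Intervals narrow with counts, and 8 of the 9 had mean counts of at least 200 in both assays. Their median was -0.27, beside -0.0048 for all genes. MTHFD1L (-0.57, -0.79 to -0.35) and MTHFD2 (-0.52, -0.70 to -0.34) were the lowest, just inside 1.5-fold, followed by MTHFD1 (-0.37), PSAT1 (-0.32), PSPH (-0.27) and PHGDH (-0.18). SHMT2 was near 0 at -0.06 (-0.16 to 0.04). SHMT1 (0.24, -0.08 to 0.57) and CBS (0.18, -0.45 to 0.80) lay above 0 with intervals across it. CTH, under the RNA minimum, had a value of 0.52 with the widest interval (-0.53 to 1.58). The intervals of PHGDH (-0.34 to -0.02) and PSPH (-0.51 to -0.02) ended near 0. With upper-quartile scaling these 2 stood at -0.13 and -0.22, and intervals of the same width reach above 0. Under that scaling 7 of the 9 stayed below 0, and the median of all genes was 0.04. Scaled by total counts, which shifts the median of all genes to -0.10, 2 members, MTHFD1L and MTHFD2, were at least 1.5-fold lower, where 1200 genes were lower and 760 higher in place of 939 and 972.

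Within each line, footprint CPM over RNA CPM describes how densely an mRNA was occupied relative to the others. PHGDH stood near the top, with 4.12 in the OE-labelled line (log2 2.04, 1.92 to 2.16, percentile 99.2 of 7260 genes) and 3.40 in the knockout-labelled line (1.77, 1.66 to 1.87, percentile 98.3). MTHFD1 had 3.01 and 2.18, and SHMT2 2.90 and 2.61. In the OE-labelled line their log2 intervals overlapped (1.46 to 1.72 and 1.47 to 1.61), so they did not differ beyond counting error. In the knockout-labelled line SHMT2 (1.31 to 1.46) lay above MTHFD1 (1.01 to 1.23). The lowest percentile of PHGDH, MTHFD1 and SHMT2 in either line was 87.6. CTH, under the RNA minimum, had 2.11 and 2.84. PSAT1, the partner of PHGDH in the same pathway, was nearer to the middle, with 1.45 and 1.09, percentiles 62.6 and 47.7.

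MTHFD2 was the lowest, with 0.79 in the OE-labelled line (log2 -0.34, -0.47 to -0.21, percentile 28.2) and 0.52 in the knockout-labelled line (-0.95, -1.08 to -0.83, percentile 15.8). Of its 4456-base transcript 23.6% is coding, the lowest share of the 10. PHGDH had 84.8% and MTHFD1 89.4%, and PSPH, with 31.0%, had values of 1.55 and 1.20. Over 7252 genes the Spearman correlation of coding share with footprints over RNA was 0.30 in the OE-labelled and 0.27 in the knockout-labelled line, as a description across genes that share the same 4 libraries. Genes under 25% coding had a median log2 of -0.41 in the OE-labelled line, and those from 75% coding had 0.56. MTHFD2 is also the member without the purine 3 bases before the start codon, and the 830 genes without it had a median of 0.03 in the OE-labelled line, beside 0.29 for those with it. The part of coding share and start context in these values was not tested. Ratios between lines compare each gene with itself under the same listed transcript. Which transcripts each line used was not measured.

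**Figure D4:**
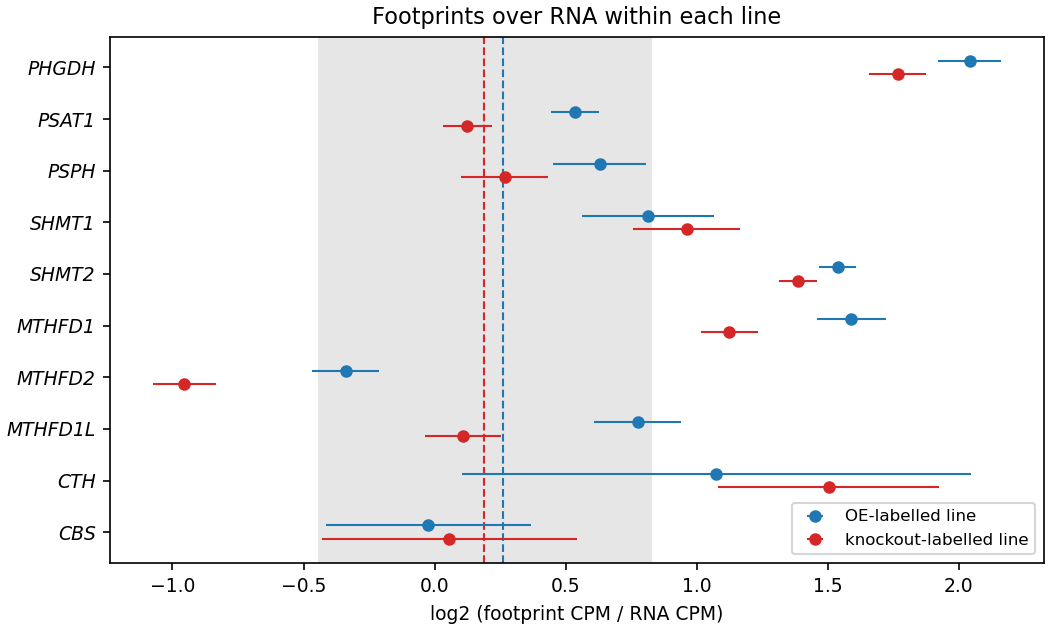
Log2 of footprint CPM over RNA CPM for each gene in the OE-labelled (blue) and knockout-labelled (red) line, with 95% Wald counting intervals. The grey band is the interquartile range of all genes measured in both assays in the OE-labelled line, and dashed lines are the medians of the lines. PHGDH lies far above the band and MTHFD2 lowest. Of the 10, 7 have the lower value in the knockout-labelled line, where the median of all genes is also lower.

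Of the 10 genes 7 had a lower value in the knockout-labelled line. SHMT1, CBS and CTH, the last under the RNA minimum, had a higher one. The median of all genes was also lower there, at 0.19 beside 0.26 in the OE-labelled line. Over the 7260 genes measured in both assays the median difference was -0.10, and the share with a lower value was not counted. The within-line values are scaled by total counts. Their difference between lines lies 0.10 below the efficiency ratio, which uses TMM factors.

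Other reads could enter some of these counts. Windows of 28 bases shared with transcripts of other genes made up 19.3% of MTHFD1, 18.8% of PSPH, 18.2% of PSAT1, 13.1% of MTHFD2, 7.76% of SHMT1 and 1.99% of MTHFD1L. The windows of PSPH were shared with 2845 genes and those of MTHFD2 with 1718, and the most frequent partners, PSPHP1 and MTHFD2P7, held 6.46% and 5.85% of all windows. MTHFD1 and SHMT1 each shared with 1 processed pseudogene. PHGDH and SHMT2, like CTH, had 0. On the opposite strand, exons of SMCR8 overlapped SHMT1, of NDUFA4L2 SHMT2, of ZBTB25 MTHFD1 and of SLC4A5 MTHFD2. How the counting treated strand and repeated reads is not given in the sources used here, so single values of these genes are uncertain to that extent.

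The letters TGATGNAA, on either strand, are shared by many elements bound by ATF4 with C/EBP partners, and were searched in RefSeq promoter windows (GRCh38.p14, 250 bases before to 50 after a start). Of the 8 members with a window, 1 (MTHFD1L) held them, beside 4.46% of 27305 genes. The window of CTH, the member with the highest footprint ratio, held 0 matches. The stretch of MTHFD1L, the only member with a match, is printed with the match in capitals, from chr6:150866317-150866404 on the plus strand.
MTHFD1L: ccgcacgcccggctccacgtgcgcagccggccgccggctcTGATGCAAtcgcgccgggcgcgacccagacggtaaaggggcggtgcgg
The match starts 129 and 90 bases before 2 annotated RefSeq starts and 24 bases after another, and lies in the first intron of the listed transcript, between exons ending at 150866049 and beginning at 150876090. A match is a description of letters, not of binding.

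Around the 10 enzymes, 6 lists of neighbouring genes were described in the same way. Glycine and serine use had 3 measured genes in RNA, of which 2 were at least 1.5-fold higher and 0 lower. All genes stood at 10.5% higher and 10.5% lower. The 2 were SARDH and SDSL. SARDH, which oxidises sarcosine to glycine, had 120 and 335 RNA counts (log2 ratio 1.03, and 0.90 in footprints). The serine dehydratase-like gene SDSL had 33 and 100 RNA counts (1.14). SDSL met the RNA minimum, with a mean of 66.5, only through its 100 counts in the knockout-labelled library. Its call therefore depends on the library where it was higher. Its mean footprint count of 49.0 was under the minimum. In the folate cycle 0 of 15 measured genes were higher in mRNA and 5 lower, beside 10.5% and 10.5% of all genes. In footprints 0 of 11 were higher and 4 lower, beside 15.0% and 14.1%. GGH, which trims folate polyglutamates, stood at -1.06 in mRNA and -1.11 in footprints. The purine synthesis gene GART, a user of formyl-folate on chromosome 21, stood at -0.69 and -0.55. The folate carrier gene SLC19A1, also on chromosome 21, stood at -0.76 in mRNA and is named after its value was seen. TYMS, which makes thymidylate, was at -0.07 in mRNA (199 and 258 counts) but -1.03 in footprints (187 and 111), an efficiency ratio of -0.96 (-1.39 to -0.52). The mitochondrial formyltransferase gene MTFMT also had lower footprints (-0.91) and efficiency (-0.71), and FPGS, which adds glutamates to folate, had a higher efficiency (0.70).

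All 6 measured genes of the methionine cycle were within 1.5-fold in each ratio. In cysteine use and glutathione synthesis, 0 of 9 were higher and 1 lower in mRNA, beside 10.5% and 10.5% of all genes. The lower gene was the sulfur dioxygenase gene ETHE1 (-0.72, and -1.09 in footprints). Efficiency was higher for 2 of 8, beside 13.4% of all genes, and lower for 0, beside 12.9%. The 2 were GCLM, the modifier subunit of glutamate-cysteine ligase (0.67), and MPST, which moves sulfur from a cysteine derivative (0.89, with footprints at 0.63). Among carriers of serine and cystine 1 of 9 was higher and 1 lower in mRNA, beside 10.5% and 10.5% of all genes. SLC1A5, a carrier of neutral amino acids, had 4608 and 3013 RNA counts and 4790 and 2346 footprint counts, with log2 ratios of -1.06 and -1.31. SLC3A2, the partner chain of the cystine carrier, stood at 0.63 and 0.16. Footprints were at 0.65 for SLC38A5 and -0.77 for SFXN3, a relative of the mitochondrial serine carrier SFXN1.

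The amino acid stress list, which holds regulators of that response, among them ATF4, and known ATF4 targets, had higher medians than the enzymes. Of 12 measured, 4 were at least 1.5-fold higher in mRNA and 0 lower, beside 10.5% and 10.5% of all genes, with a median of 0.45. In footprints 3 were higher and 0 lower, beside 15.0% and 14.1%, with a median of 0.47. Of the 12, 8 lay above 0 in mRNA and 10 in footprints, with the lowest at -0.25 and -0.51. Of all measured genes, 5039 of 9855 lay above 0 in mRNA and 3775 of 7323 in footprints. Of this list, only genes past 1.5-fold in a ratio are named. The list was chosen with results of these libraries known and is not independent evidence of its direction. ATF4 itself had 2568 and 3020 RNA counts (-0.21) and 1458 and 2739 footprint counts (0.63), an efficiency ratio of 0.84 (0.72 to 0.96). DDIT3 stood at 0.94 and 1.55, SESN2 at 0.74 and 0.69, ATF3 at 0.90 and 0.51 and VLDLR at 1.03 and 0.51. Beside these, 8 of the 10 enzymes had footprint log2 ratios below 0, from -0.91 (CBS) to -0.06 (MTHFD1). SHMT1 (0.36) and CTH (2.33) lay above it. In mRNA 6 of the 9 measured enzymes lay above 0 and 3 below. Over the 6 lists together, 7 of 54 measured genes were higher and 7 lower in mRNA, and 6 and 7 of 47 in footprints. The footprint counts are 12.8% and 14.9% of these genes, beside 15.0% and 14.1% of all genes, and the mRNA counts stand beside 10.5% and 10.5%, so the shares are near the background.

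**Figure D5:**
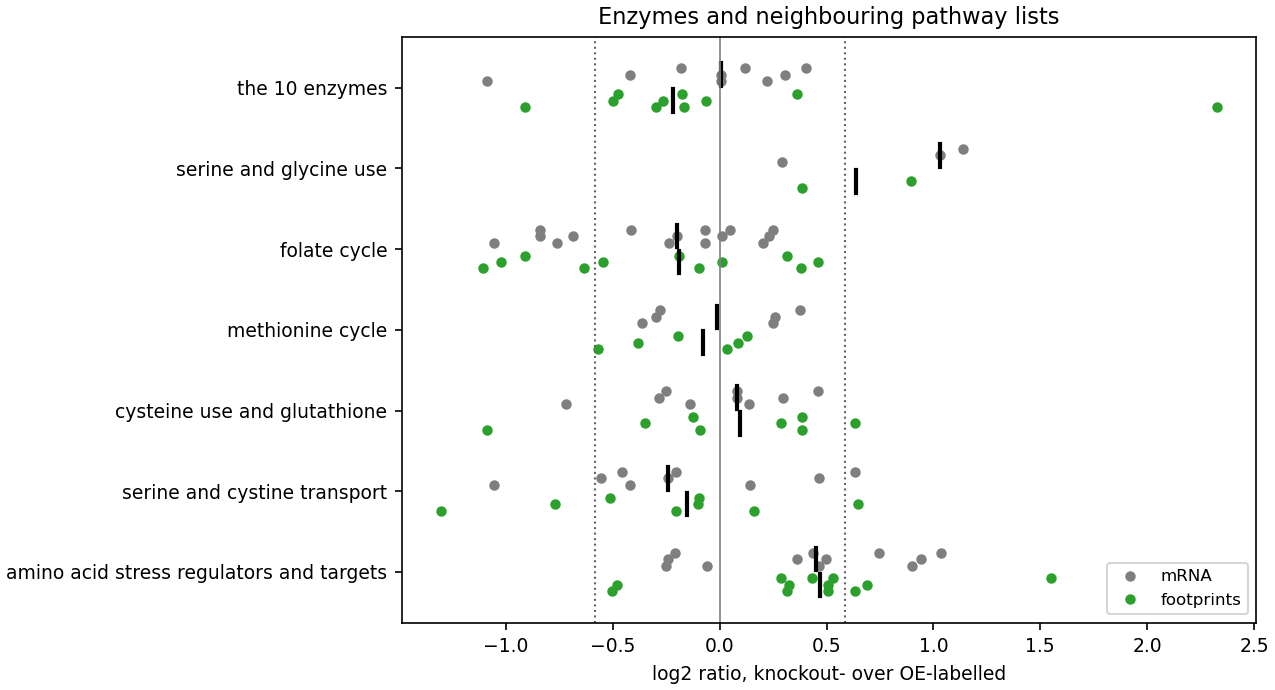
Log2 ratios, knockout-labelled over OE-labelled, of every measured gene of the 10 enzymes and the 6 neighbouring lists, in mRNA (grey) and footprints (green). Black bars are medians and dotted lines mark 1.5-fold. The amino acid stress list has medians of 0.45 and 0.47, and the enzymes 0.01 and -0.22, with CTH alone at 2.33.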

How the data were processed

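The authors deposited raw counts, whole numbers for 19192 genes, each with a single named transcript. The submitters' processing notes name GRCh38 and, without roles, HISAT2 2.1.0, Bowtie 1.1.2 and cutadapt 1.10. How reads were counted, over which part of the transcript and from which annotation, and whether PCR copies were collapsed, is not given in the sources used here. Uncollapsed copies would make the intervals too narrow. For the OE-labelled RNA library the labels give both SW840 and SW480, and it was taken as SW480.

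Libraries were grouped by genotype label and assay. TMM factors (edgeR 4.0.16, R 4.3.3) scaled the libraries of each assay, and Python 3.11.15 with scipy 1.17.1 and pandas 2.3.3 gave ratios and intervals. With 1 library per line and assay no model was fitted. Ratio steps were tested on simulated counts. Coordinates and coding lengths, without stop codons, are from GENCODE release 29, and promoter windows from RefSeq.

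Members and lists were chosen with earlier results of these data known. Named genes are the members, IGF2BP1, LIN28B, up to 6 genes per list that were at least 1.5-fold different in a ratio, by highest counts, and the 5 genes nearest to CTH and to CBS. Of the 11 listed genes of glycine and serine use, 8 were found. Some genes that the rule names are not reported here. Alternatives covered scaling (size factors of DESeq2 1.42.0, total counts, upper quartile), count minimums, the added count and the fold.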

Additional observations from a re-analysis of the deposited data

How the results depend on the processing

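No paired analysis was possible because each line has 1 library per assay. Directions of CTH and CBS held in every scaling, filter and added count that measured them. PHGDH and PSPH, at 0.01 and 0.00 in mRNA, changed sign with upper-quartile scaling and were not called. With total counts the mRNA log2 ratios were 0.34 for MTHFD2, -0.07 for PSAT1 and -0.30 for SHMT2, and 2 members passed 1.5-fold lower in efficiency, also without mitochondrially encoded genes. The total-count split in mRNA was 1493 higher and 746 lower in place of 1036 and 1038.

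Members higher in mRNA numbered 1 in place of 0 with a minimum of 10, with no filter, at a lower log2 threshold of 0.32, and with CTH kept, an alternative added after the data were seen. Members lower in mRNA numbered 2 at the lower threshold and 0 at a minimum of 200, which leaves out CBS. In footprints, members higher numbered 2 at the lower threshold and 0 at a minimum of 200, and members lower 3 at the lower threshold, 0 at 2-fold and 0 at a minimum of 200. In efficiency 3 were lower at the lower threshold.

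Counts of all genes moved with the threshold and the filter by construction. For mRNA, higher and lower genes numbered 2353 and 2222 at the lower threshold, 295 and 344 at 2-fold, 1687 and 1705 at a minimum of 10, 404 and 388 at 200, and 3164 and 2998 with no filter. For footprints these were 2067 and 1937, 341 and 325, 2073 and 2044, 296 and 273, and 3179 and 3266. For efficiency they were 1925 and 1864, 265 and 261, 1986 and 1994, 224 and 166, and 3920 and 4289. Depth limits CTH and CBS most: the 16 and 17 counts of CTH in the OE-labelled line leave its fold uncertain.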
